A study of Mus musculus with 2 samples.

Results

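The 9 genes described here encode the core of the Hedgehog pathway: the ligands Shh and Ihh, the receptor Ptch1, the membrane antagonist Hhip, the co-receptor Boc, the signal transducer Smo and the transcription factors Gli1, Gli2 and Gli3. They were picked by symbol from the 32286 features of the deposited count matrices, and all 9 were found. None of the 9 genes was used to define a cell class. The study profiled single cells from the caudal region of E8.5 mouse embryos, wild type and of the C57BL/6J strain, the stage at which the trunk is being laid down from the tail end. Tissue of several embryos was pooled, dissociated with the enzyme mix TrypLE and turned into 2 libraries, replicate 1 and replicate 2, with a droplet kit that captures the 5′ ends of transcripts. There is no treated or mutant group, so the comparisons below are between cell classes, each measured once in each library.

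Hedgehog ligands are secreted by signalling centres such as the notochord and the gut endoderm and act on neighbouring tissue. In a receiving cell the ligand binds Ptch1 and relieves its block on Smo, which acts at the primary cilium and shifts the Gli factors from repressors to activators. Ptch1, Hhip and Gli1 are themselves direct targets of the activated pathway, so their transcripts are the usual readout of response, whereas Gli3 acts largely as a repressor where ligand is scarce.

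Cells were compared over barcodes with at least 2000 UMIs (unique molecular identifiers, 1 per captured transcript) and 0.3 to 10% mitochondrial UMIs. That left 11244 barcodes in replicate 1 with a median of 17872.5 UMIs, and 8328 in replicate 2 with a median of 13685.5 UMIs. A cell entered a class when its markers scored clearly higher than those of every other class, which placed 6777 (60.3%) and 4965 (59.6%) of these cells. The libraries stood apart beyond depth. Pou5f1, a pluripotency factor that fades as the trunk forms, was detected in 36.0% of cells in replicate 1 but 1.21% in replicate 2, and the late posterior gene Hoxc10 in 4.82% and 30.9%. Xist, transcribed from the inactive X chromosome, had a UMI in 50.7% and 0.31%. The part of stage or embryo make-up in the results was not tested, and each value is therefore given for both libraries. The libraries share 761 barcode sequences, 114 of them among the cells used. Levels are counts per 1000000 UMIs of a class in a library (CPM). They compare a gene between classes, not one gene with another.

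The promoters of Ptch1 and Hhip are shown first because the transcripts of these genes rose together in 2 of the tissue comparisons below. Each is a 300-base window over a RefSeq transcription start (GRCm38.p6). For Ptch1 (chr13:63565686-63565985, minus strand) the start lies inside the gene body as GENCODE M21 draws it, and for Hhip the window is chr8:80057959-80058258 on the minus strand. Capitals mark matches to CCACCC or its reverse complement GGGTGG, the core of the sequence that Gli factors bind.

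Ptch1: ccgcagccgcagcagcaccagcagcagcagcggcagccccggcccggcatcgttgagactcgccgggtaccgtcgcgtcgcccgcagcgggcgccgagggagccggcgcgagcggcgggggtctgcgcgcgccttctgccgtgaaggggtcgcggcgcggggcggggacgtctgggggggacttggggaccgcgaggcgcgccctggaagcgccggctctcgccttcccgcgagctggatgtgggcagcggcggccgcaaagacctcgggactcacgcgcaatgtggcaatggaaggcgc

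Hhip: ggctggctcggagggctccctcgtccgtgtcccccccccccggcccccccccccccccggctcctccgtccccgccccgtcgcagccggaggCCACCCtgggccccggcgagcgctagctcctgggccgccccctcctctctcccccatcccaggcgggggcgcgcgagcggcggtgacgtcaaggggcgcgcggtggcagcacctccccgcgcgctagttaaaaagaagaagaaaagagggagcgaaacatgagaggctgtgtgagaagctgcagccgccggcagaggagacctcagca

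Promoters of Ihh, Smo, Gli2 and Gli3 were also matched in the RefSeq table, 6 of the 9 genes in all; Shh, Gli1 and Boc were not matched. The full 9-base Gli consensus GACCACCCA, or TGGGTGGTC on the other strand, occurred in none of the 6 windows and in 66 of 27025 windows genome-wide (0.244%). The CCACCC core, which the longer motif contains, occurred once each in Hhip, Smo and Gli3, at 2 places each in Ihh and Gli2, and not in the Ptch1 window. It was thus in 5 of the 6 windows and in 30.9% of all windows. These matches are a description of the letters only.

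The ligands were concentrated in few classes in both libraries. Shh (chr5:28456815-28467256, minus strand, GRCm38) stood at 597 CPM in notochord cells of replicate 1 and 341 in replicate 2. Gut endoderm followed with 112 and 247. The notochord was the highest class in each library, and its 2 values did not overlap with those of the gut. In the 10 classes outside notochord, gut and extraembryonic endoderm, Shh lay between 0 and 4.08 in replicate 1 and between 0.42 and 14.1 in replicate 2, both maxima in the allantois. Relative to the plain mean of the other 12 classes, notochord cells held 52.7 times more Shh in replicate 1 and 8.64 times more in replicate 2. The edgeR quasi-likelihood test over 14363 genes gave a log2 difference of 7.47 ± 0.39 (SE) for notochord (Benjamini-Hochberg adjusted p = 7.83e-11). For gut endoderm it gave 5.82 ± 0.36 (adjusted p = 5.62e-10, edgeR), where the plain ratios were only 2.16 in replicate 1 and 5.22 in replicate 2. These fits average log levels over classes that are nearly free of Shh, so the plain ratios above are the safer measure of size.

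The notochord class held 99 cells in replicate 1 and 54 in replicate 2, and the notochord factor Noto stood at 537 and 643 CPM. Noto is a marker of the gate, so its low level elsewhere, the highest value of any other class being 1.71, is no independent check. Foxa2, which is on the list of known target genes below, was a marker of both the notochord gate and the gut gate. Neither class is therefore fully independent of the pathway. The part of misplaced notochord cells in the gut Shh was not tested. By count of transcripts rather than level, the gut held most of the Shh. It contributed 1741 of the 2922 Shh UMIs in gated cells of replicate 1 (59.6%), and 944 of 1342 in replicate 2 (70.3%). The notochord contributed 32.6% and 15.1% from 1.46% and 1.09% of the gated cells. These shares depend on how many cells of each tissue were recovered.

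Ihh (chr1:74945315-74951672, minus strand), the ligand better known from endoderm and cartilage, marked endoderm and not the notochord. Gut endoderm held 102 and 83.6 CPM, and extraembryonic endoderm 61.8 and 120. The ranges of these 2 classes overlapped. The other 11 classes stayed at or below 2.48 in replicate 1 and 4.84 in replicate 2. In notochord cells only 2 Ihh UMIs were counted in replicate 1 and none in replicate 2, where the exact upper 95% counting limit was 6.2 CPM. Ihh was higher in gut endoderm than in the mean of the other classes by 6.11 ± 0.17 on the log2 scale (edgeR, adjusted p = 1.19e-14). The plain ratios were smaller, at 16.6 in replicate 1 and 7.58 in replicate 2, because the fit averages log levels over classes nearly free of Ihh. Endoderm thus carried both ligands, while the notochord carried Shh with little or no Ihh.

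The extraembryonic endoderm class needs separate reading for Shh. Its Shh level was 9.02 in replicate 1 (252 cells) and 201 in replicate 2 (25 cells). The 25 cells of replicate 2 also held more of the gut factor Foxa1 (113 against 17.0 in replicate 1) and less of the yolk sac gene Apoa1 (1978 against 6197). The adjusted p of 0.000421 (edgeR) for higher Shh in this class therefore rests on replicate 2. The part of gut cells in it was not tested.

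**Figure D1:**
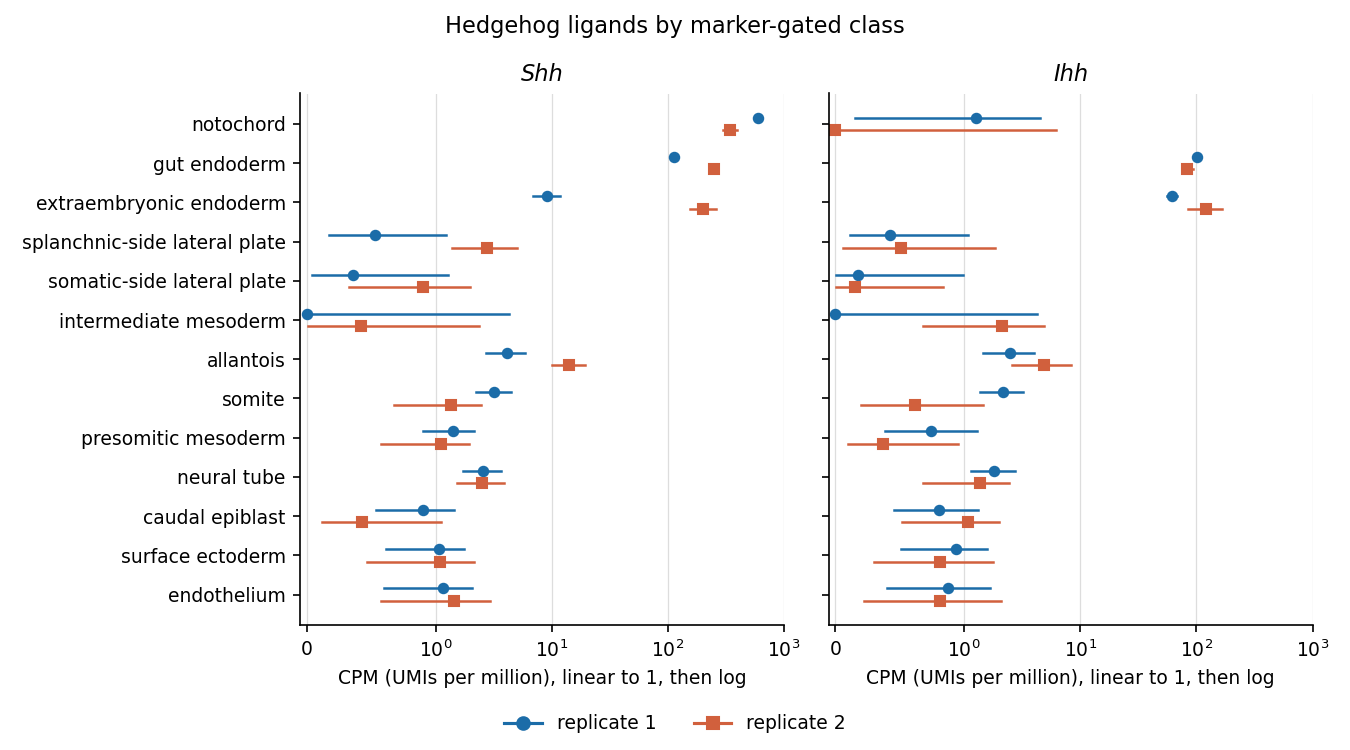
Levels of Shh and Ihh in 13 marker-gated classes, in CPM on an axis that is linear up to 1 and logarithmic above. Each point is 1 library and each bar its exact 95% counting interval; notochord and gut stand far to the right for Shh, gut and extraembryonic endoderm for Ihh.

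Counting cells gave the same ordering. After each cell was thinned to 7500 UMIs, 72 of 86 notochord cells of replicate 1 had a Shh UMI (83.7%, exact Clopper-Pearson 95% interval 74.2 to 90.8%). In replicate 2 it was 31 of 44 (70.5%, 54.8 to 83.2%). Gut endoderm had 34.6% and 55.4%. Endothelial cells, which are not known as a Hedgehog source, had 0.72% and 0.69%, and blood cells of replicate 2 had 0.67%, which is read as background. Among the cells deep enough to be thinned, the median before thinning was 15668.5 and 11531 UMIs in notochord and 23104.5 and 15081 in endothelium. For Ihh the shares in gut were 44.9% and 45.4%, against 0.96% and 0% in endothelium (0 of 292 cells, which by the limit of 3 counts allows a share of up to 1.03% of cells with a UMI). These intervals and limits cover counting error only.

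Within gut endoderm the ligands were often found in the same cells. In thinned cells, 131 of 680 held both Shh and Ihh in replicate 1 (19.3%, where independent detection would give 15.5%), and 72 of 269 in replicate 2 (26.8%, against 25.1%). Splitting gut cells by at least 1 UMI of the posterior factor Cdx2 separated none of the 9 genes. Shh read 116 and 236 CPM in Cdx2-positive cells and 68.7 and 370 in Cdx2-negative cells, so the libraries went in opposite directions. Its log2 difference was 0.07 ± 0.62 (edgeR, adjusted p = 1). Ihh differed by 0.19 ± 0.28 (edgeR, adjusted p = 0.923), with 103 and 82.8 against 83.4 and 93.4. No member passed here, and 1 of 14490 genes did (0.0069%), with 1137 genes at an unadjusted p under 0.05; DESeq2 called 13 genes and none of the 9. The negative side held 83 and 37 cells. They were shallower, with a median of 15782 and 8113 UMIs against 21167 and 12812.5 on the positive side. The part of cells whose Cdx2 was missed at low depth was not tested.

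**Figure D2:**
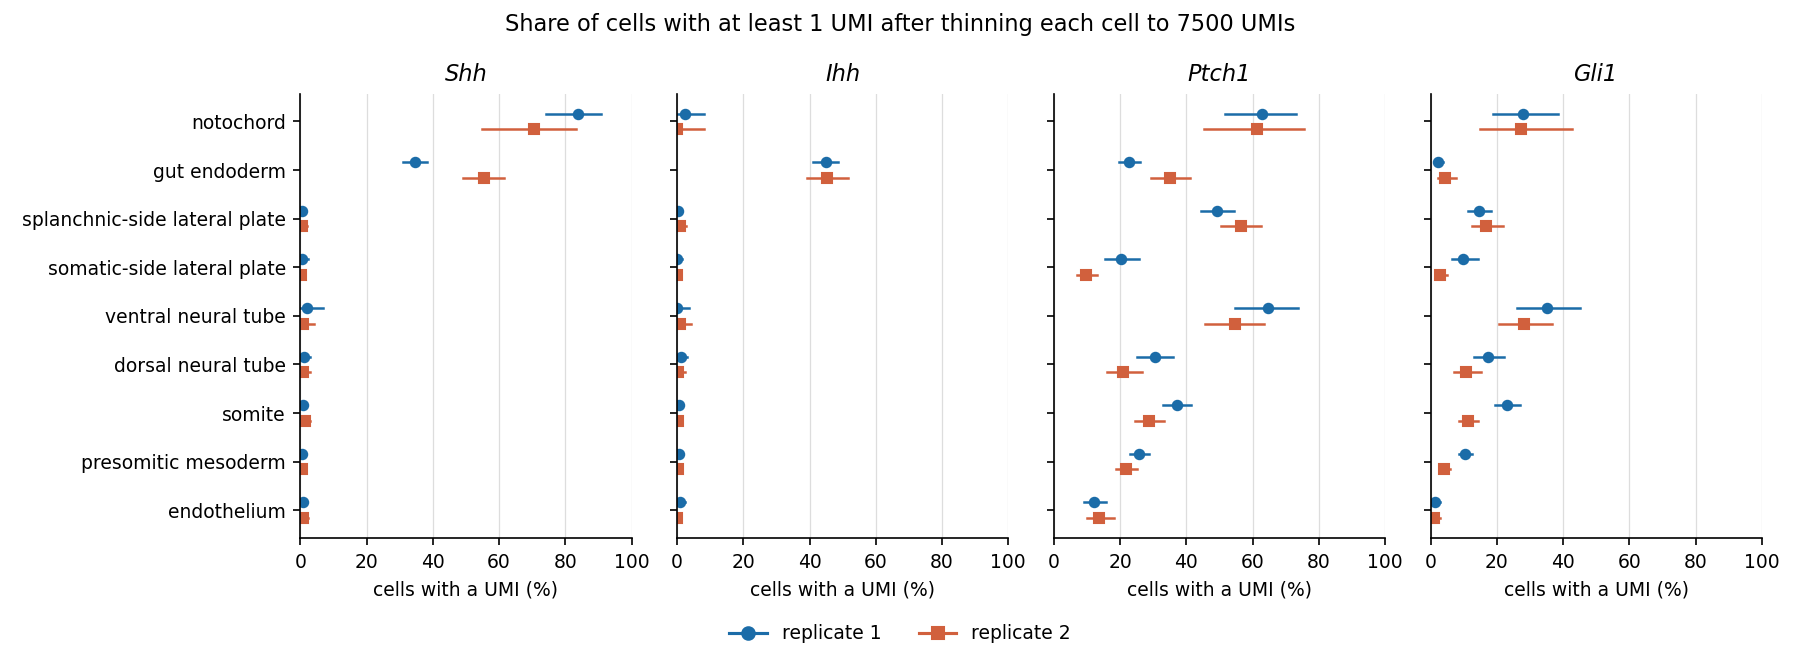
Percentage of cells with at least 1 UMI of Shh, Ihh, Ptch1 and Gli1 in 9 classes after thinning to 7500 UMIs per cell. Points are libraries and bars exact Clopper-Pearson 95% intervals. Endothelium, at the bottom, is near 1% for the ligands and Gli1 and above 12% for Ptch1. Only its ligand shares are read as background.

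On the receiving side, Ptch1 (chr13:63508328-63573598, minus strand), the receptor and pathway target, was highest in splanchnic-side lateral plate among the 13 classes. It measured 122 and 167 CPM there. The notochord followed at 117 and 139, and these ranges overlapped. Both classes lay above all others, where the highest values were 80.4 in neural tube of replicate 1 and 72.9 in gut endoderm of replicate 2. The lowest levels were in extraembryonic endoderm (17.9 and 12.9), endothelium (18.4 and 19.9), surface ectoderm (24.2 and 22.1) and somatic-side lateral plate (30.0 and 18.2), and apart from the first their order differed between the libraries. Against the mean of the other classes Ptch1 was higher in splanchnic-side mesoderm by 1.88 ± 0.17 on the log2 scale (edgeR, adjusted p = 1.16e-07). In the notochord it was higher by 1.56 ± 0.22 (edgeR, adjusted p = 5.56e-05) and in neural tube by 0.89 ± 0.18 (edgeR, adjusted p = 0.00109).

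Gli1 (chr10:127329882-127341974, minus strand), the activator that Hedgehog induces, was highest among the 13 classes in the notochord, at 38.9 and 33.6 CPM, though ventral neural tube cells taken alone held more (61.0 and 40.1). Neural tube (32.6 and 23.9), somite (28.7 and 18.9) and splanchnic-side lateral plate (22.1 and 23.0) came next, with overlapping ranges. Every other class stayed at or below 17.2. Gut endoderm, the larger ligand source, had only 3.98 and 6.53, and endothelium 2.04 and 2.03. Gli1 overlaps Arhgap9 and the antisense gene Gm47200 on the opposite strand, and Shh and Gli3 each overlap 1 such gene. No source used here says whether counting used strand, so reads of these partners cannot be told apart from theirs.

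The ligand sources were each compared with the mean of the other classes, not with each other. In the notochord 4 of 9 members passed, with Shh, Gli1 and Ptch1 higher and Boc lower, where 21.2% of the 14363 genes tested passed. In gut endoderm 6 of 9 passed, with Shh and Ihh higher and Gli1, Gli2, Gli3 and Boc lower, against 32.1% of all genes. Gli1 in gut fell by 1.08 ± 0.40 on the log2 scale (edgeR, adjusted p = 0.049), a call that by mean log levels rests on replicate 1. Within replicate 2 alone the log2 difference from the mean log level of the other classes was 0.01. Against their plain mean, Gli1 in gut stood at 0.24 times in replicate 1 and 0.56 times in replicate 2. Ptch1 in gut, at 38.8 and 72.9 CPM, did not pass (0.35 ± 0.20, edgeR, adjusted p = 0.195). Hhip passed in neither source. Ptch1 was found in Shh-positive notochord cells at about the rate in all notochord cells: 47 of 86 thinned cells held both in replicate 1 (54.7%, against 52.6% under independence). In replicate 2 it was 17 of 44 (38.6%, against 43.2%).

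Hhip (chr8:79965851-80058006, minus strand), which binds and sequesters ligand, was a rare transcript. Splanchnic-side lateral plate held 10.5 and 15.2 CPM, above every other class in both libraries. Neural tube had 6.57 and 4.84, surface ectoderm 2.87 and 4.85 and somite 1.31 and 5.06, with overlapping ranges. Caudal epiblast, where axial progenitors reside, had 0.45 and 0.32, from 9 and 3 UMIs. Hhip was higher in splanchnic-side mesoderm by 3.22 ± 0.32 on the log2 scale (edgeR, adjusted p = 5.97e-07). After thinning, 6.32% and 8.24% of splanchnic-side cells held a Hhip UMI against 1.44% and 0.69% of endothelial cells.

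**Figure D3:**
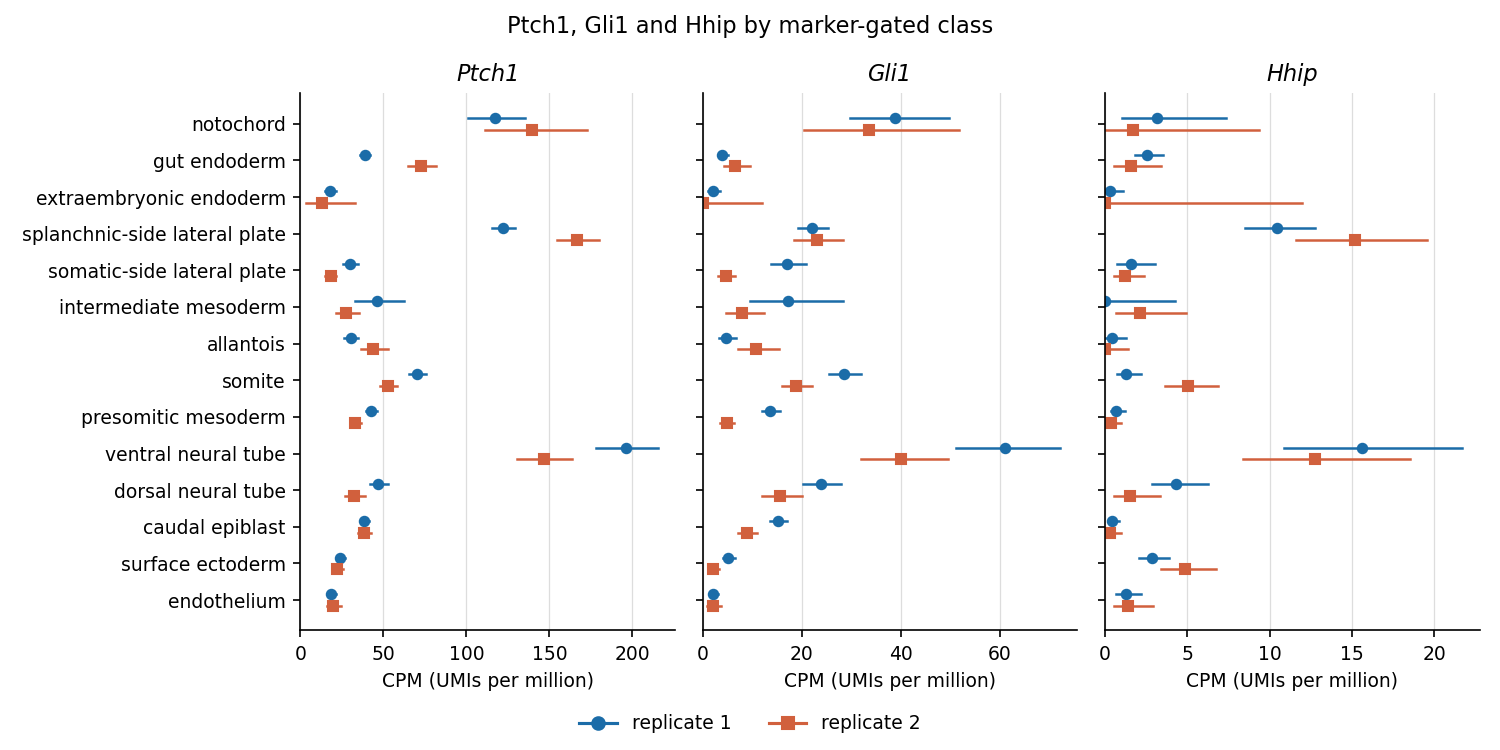
Levels of Ptch1, Gli1 and Hhip by class in CPM, with the neural tube split into ventral and dorsal cells. Points are libraries and bars exact 95% counting intervals; splanchnic-side lateral plate and ventral neural tube stand out for Ptch1 and Hhip, ventral neural tube and then notochord for Gli1, and notochord also for Ptch1.

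Within lateral plate mesoderm, the layer beside the gut carried far more Ptch1 and Hhip than the layer beside the ectoderm. A reservation on how the gate drew these classes follows below. Ptch1 measured 122 and 167 CPM in splanchnic-side cells (465 and 308 cells) and 30.0 and 18.2 in somatic-side cells (271 and 449 cells), with no overlap. The log2 difference was 2.59 ± 0.28 (edgeR, adjusted p = 3.21e-05). It was 2.02 within replicate 1 and 3.18 within replicate 2. Hhip measured 10.5 and 15.2 against 1.6 and 1.2, a log2 difference of 3.17 ± 0.55 (edgeR, adjusted p = 0.00258). Gli1 was 22.1 and 23.0 against 17.0 and 4.66, so that only replicate 2 was far apart, and did not pass (log2 1.15 ± 0.43, edgeR, adjusted p = 0.178). Boc, Gli2, Gli3 and Smo differed by between -0.43 and 0.53 on the log2 scale and did not pass, and both classes nearly lacked the ligands. In all, 2 of 9 members passed, both higher, where 3.63% of all genes passed. By cells, 49.4% and 56.6% of thinned splanchnic-side cells held a Ptch1 UMI, against 20.2% and 9.70% of somatic-side cells and 12.2% and 13.7% of endothelial cells. Blood cells of replicate 2 held one in 10.7%. The somatic-side share was thus above the endothelial one in replicate 1 and below it in replicate 2, with overlapping intervals in each.

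The markers of both classes are those of their gates, so their levels describe the gate and do not test the labels. In splanchnic-side cells 6 of 8 markers in replicate 1 and 5 of 8 in replicate 2 were higher than in any other class, Hand1 among them at 591 and 385 CPM. In somatic-side cells 5 of 8 and 7 of 8 were, Prrx1 among them at 134 and 196. The hindlimb factor Pitx1 was not, at 33.6 and 181 against 259 and 298 in another class. Foxf1, a splanchnic marker that itself responds to Hedgehog, was also used in the gate. So was Foxf2, which is on the list of known target genes below. The split from somatic-side cells is therefore not independent of the pathway, which limits the reading of Ptch1 and Hhip. Foxf1 read 415 and 479 in splanchnic-side cells and still 123 and 76.1 in somatic-side cells. Ptch1 and Hhip also went together cell by cell in splanchnic-side cells. In thinned cells with a Ptch1 UMI, 9.0% and 11.3% held Hhip, against 3.70% and 4.31% of those without. This was 19 of 211 and 17 of 151 cells, and cells of a library are not replicates.

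In paraxial mesoderm, somites were compared with the presomitic mesoderm from which they form. Gli2, the main activator among the Gli factors, was 25.5 and 36.3 CPM in somite and 8.58 and 8.72 in presomitic mesoderm, with no overlap. The log2 difference was 1.83 ± 0.20 (edgeR, adjusted p = 5.34e-06). Gli1 was 28.7 and 18.9 against 13.7 and 4.82, a difference of 1.42 ± 0.39 (edgeR, adjusted p = 0.0334). Boc rose by 0.87 ± 0.20 (edgeR, adjusted p = 0.0087), from 12.1 and 8.44 to 16.1 and 20.9. Hhip rose by 2.44 ± 0.60 (edgeR, adjusted p = 0.015), from 0.68 and 0.37 to 1.31 and 5.06, mostly in replicate 2. Ptch1 was 70.3 and 53.1 against 42.8 and 33.0, without overlap but short of the threshold (0.73 ± 0.26, edgeR, adjusted p = 0.109). Gli3 and Smo differed by 0.18 ± 0.13 and -0.08 ± 0.12. So 4 of 9 members passed, all higher, where 7.19% of all genes passed. Without the library as a term in the fit only Gli2 and Hhip passed.

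The neural tube was compared with the caudal epiblast, which feeds it. Hhip was 6.57 and 4.84 CPM in neural tube and 0.45 and 0.32 in caudal epiblast (log2 3.76 ± 0.59, edgeR, adjusted p = 0.000365). Ptch1 was 80.4 and 69.1 against 38.5 and 38.6 (0.96 ± 0.26, edgeR, adjusted p = 0.0286). Boc was 15.5 and 16.9 against 7.52 and 7.43 (1.12 ± 0.20, edgeR, adjusted p = 0.00151). Gli2 was 36.0 and 43.8 against 22.8 and 26.4 (0.69 ± 0.18, edgeR, adjusted p = 0.026). None of these 4 pairs overlapped between the classes. Gli1 was 32.6 and 23.9 against 15.2 and 8.93, also without overlap, and did not pass (1.24 ± 0.39, edgeR, adjusted p = 0.0665). The 4 of 9 members that passed compare with 6.43% of all genes. Without the library term 2 of the 4, Hhip and Boc, passed.

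Within the neural tube Ptch1 followed the dorsoventral axis, with a reservation on how the sides were drawn. Ventral cells (108 and 130) were told from dorsal cells (297 and 241) by genes such as Olig2, Nkx6-1 and Nkx2-9, which are themselves induced by Hedgehog in the ventral tube, so the split is close to a split by signalling. Ptch1 was 196 and 147 CPM in ventral cells and 46.9 and 32.6 in dorsal cells, with a log2 difference of 2.09 ± 0.28 (edgeR, adjusted p = 0.000335). It was 2.06 within replicate 1 and 2.16 within replicate 2. Ptch1 was the 1 member of 9 to pass, where 28 of 14251 genes did (0.196%). Ventral neural cells held more Ptch1 than any of the 13 whole classes in replicate 1, and were second to splanchnic-side mesoderm in replicate 2.

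Other members showed clear values in the neural sides that did not pass over all genes. Gli1 was 61.0 and 40.1 in ventral against 23.9 and 15.7 in dorsal cells, without overlap (1.35 ± 0.39, edgeR, adjusted p = 0.553). Hhip was 15.6 and 12.7 against 4.34 and 1.54, also without overlap (2.17 ± 0.55, edgeR, adjusted p = 0.248). Boc went the other way, with 9.80 and 9.43 in ventral and 21.2 and 21.6 in dorsal cells (-1.15 ± 0.27, edgeR, adjusted p = 0.173). Gli3 was 41.0 and 58.0 against 56.4 and 84.7 (-0.50 ± 0.15, edgeR, adjusted p = 0.591), lower ventrally in each library although the ranges overlapped. Gli2 read 32.1 and 44.8 against 34.1 and 41.3. Shh itself was low on both sides, with 4 and 5 UMIs in ventral cells (1.78 and 2.36 CPM) and 22 and 9 in dorsal cells (3.41 and 2.31). Only the dorsal cells of replicate 1 had a counting interval (2.14 to 5.16) clear of that of endothelium (0.60 to 2.04 in that library). By cells, 64.8% and 54.7% of thinned ventral cells held a Ptch1 UMI and 30.4% and 20.9% of dorsal ones.

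**Figure D4:**
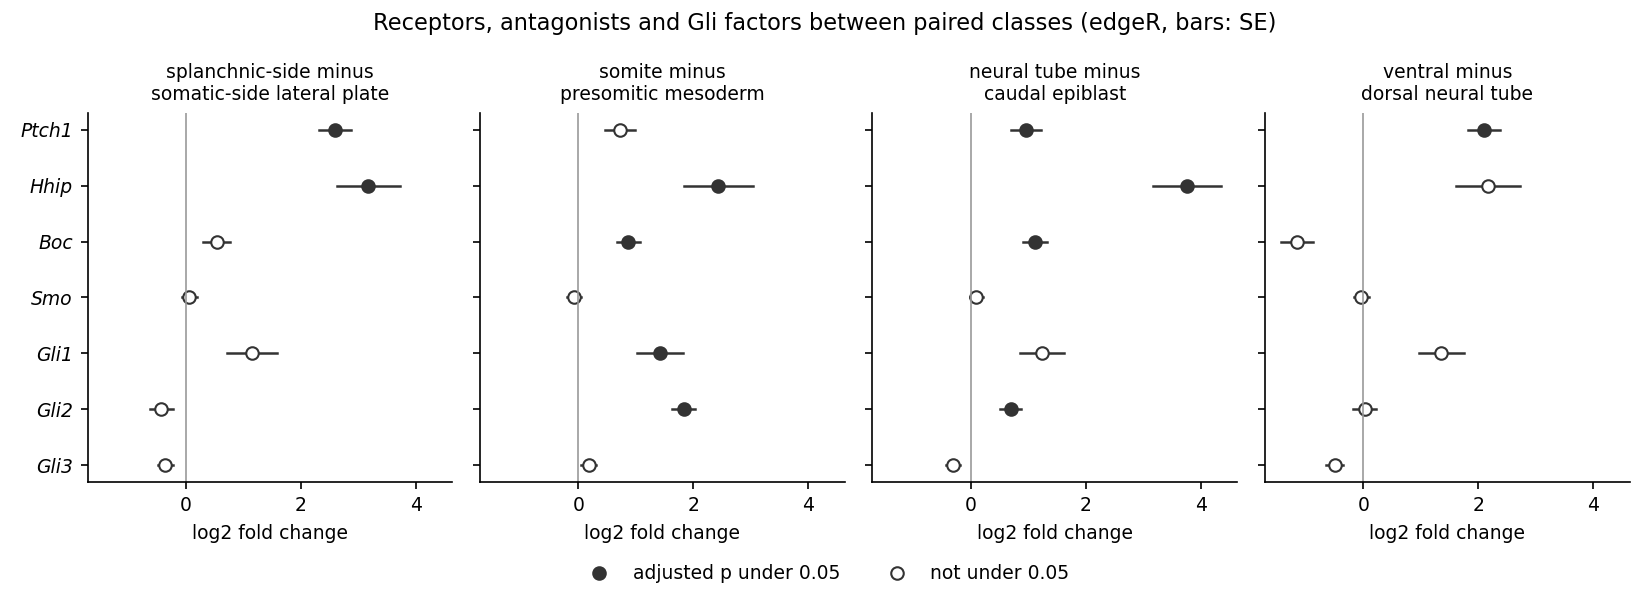
Log2 fold changes of 7 members in 4 comparisons of related classes, fitted by edgeR across all genes, with SE bars. Filled points passed an adjusted p of 0.05; Ptch1 passed in 3 of the 4 panels, Hhip in 3, and Smo and Gli3 in none.

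Smo (chr6:29735503-29761365, plus strand), without which no Hedgehog signal passes, was the most even member. It lay between 74.2 and 111 CPM in 11 of 13 classes over both libraries. Endothelium was lower at 61.1 and 54.3 (-0.42 ± 0.10, edgeR, adjusted p = 0.00208), and extraembryonic endoderm at 30.3 and 55.0 (-1.21 ± 0.14, edgeR, adjusted p = 8.84e-07). The allantois was called slightly higher, at 104 and 98.7 (0.32 ± 0.09, edgeR, adjusted p = 0.0315). That call was lost in 4 of the alternative analyses.

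Gli2 (chr1:118834132-119053619, minus strand) was highest in neural tube (36.0 and 43.8), somatic-side lateral plate (27.3 and 42.6) and somite (25.5 and 36.3), whose ranges overlapped. It was low in gut endoderm at 3.34 and 2.88 (-2.30 ± 0.21, edgeR, adjusted p = 9.85e-08) and in endothelium at 4.08 and 5.49. Gli3 (chr13:15463235-15730026, plus strand) had its highest means in intermediate mesoderm (87.2 and 89.4), somatic-side lateral plate (81.3 and 93.5) and caudal epiblast (64.3 and 90.3), whose ranges overlapped. It was higher than the mean of the other classes by 0.75 ± 0.09 in somatic-side cells (edgeR, adjusted p = 2.69e-05) and by 0.70 ± 0.12 in intermediate mesoderm (edgeR, adjusted p = 0.0011). Caudal epiblast was also higher, by 0.56 ± 0.09 (edgeR, adjusted p = 0.00017), as was splanchnic-side lateral plate (62.4 and 72.7) by 0.36 ± 0.10 (edgeR, adjusted p = 0.0175). Gut endoderm had 37.0 and 46.8, and every class outside the endoderm and endothelium held at least 43.3.

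Boc (chr16:44485049-44558897, minus strand), which presents ligand to Ptch1, was highest in somite (16.1 and 20.9) and neural tube (15.5 and 16.9), whose ranges overlapped. Gut endoderm (2.12 and 1.57), endothelium (2.14 and 1.83) and notochord (1.88 and 1.68) were among the lowest, so both ligand-rich tissues had little of it. The notochord value comes from 3 and 1 UMIs, with an upper 95% counting limit of 5.5 and 9.36 CPM. Boc correlated between the libraries over the 13 classes with a Spearman coefficient of 0.973, and Gli2 with 0.956. Ihh had the lowest Spearman coefficient of the 9, 0.533, with 11 of its 13 classes at or below 4.84 CPM. Its Pearson coefficient on the scale of log2(CPM + 5) was 0.976, the highest of the 9. These are descriptions over classes that share 2 libraries.

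**Figure D5:**
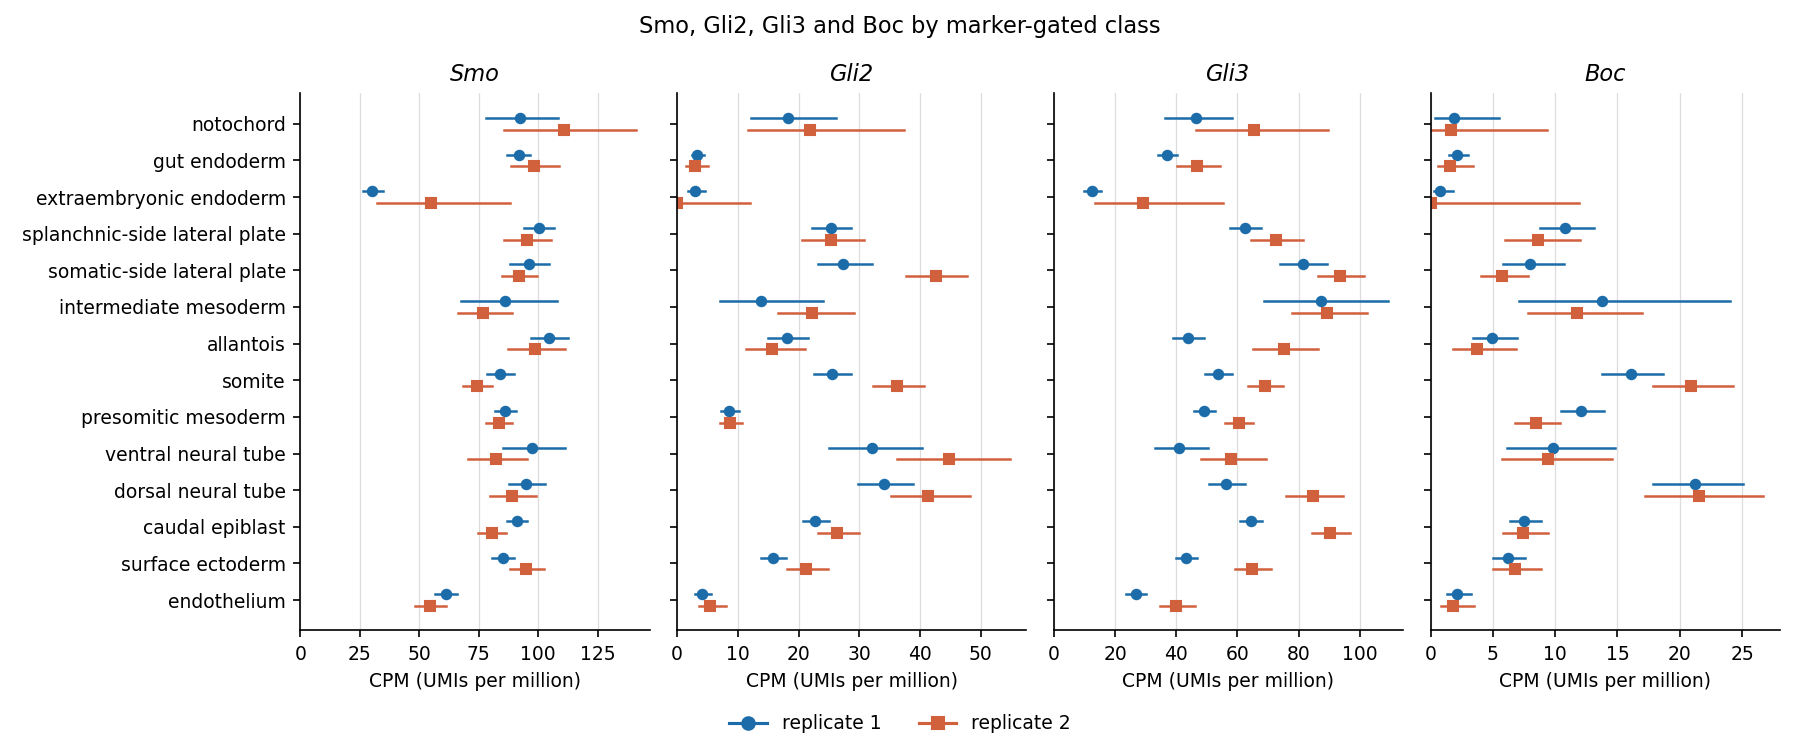
Levels of Smo, Gli2, Gli3 and Boc by class in CPM, with the neural tube split. Points are libraries and bars exact 95% counting intervals; Smo varies little outside endothelium and extraembryonic endoderm, while Gli2 and Boc are low in gut endoderm and endothelium.

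Read by class, splanchnic-side lateral plate had the most members called higher, 6. There 7 of 9 members passed against the mean of the other classes, with Ptch1, Hhip, Gli1, Gli2, Gli3 and Boc higher and Ihh lower, where 12.8% of all genes passed. In neural tube 5 of 9 passed, all higher (Ptch1, Hhip, Gli1, Gli2 and Boc), against 24.3%. In somite 4 of 9 passed, all higher (Ptch1, Gli1, Gli2 and Boc), against 17.1%. The somite call of Ptch1 (0.60 ± 0.18, edgeR, adjusted p = 0.028) was lost in 4 alternative analyses. Against the plain mean of the other classes, Ptch1 in somite stood at 1.39 times in replicate 1 and 0.958 times in replicate 2. Endothelium showed the reverse, with 6 of 9 lower and none higher, against 35% of all genes. Extraembryonic endoderm had the same 6 genes lower and both ligands higher, against 43.5%.

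The remaining classes were mixed. Caudal epiblast had Gli2, Gli3 and Boc higher and Hhip lower, against 21.3% of all genes. The Boc call there holds only against the mean of log levels, which classes with little Boc pull down. Against the plain mean of the other classes, Boc stood at 0.957 times in replicate 1 and 1.02 times in replicate 2. Presomitic mesoderm had Boc higher and Gli2, Hhip and Ihh lower, against 18.2%. Somatic-side lateral plate had Gli2 and Gli3 higher and Ptch1 and Ihh lower, against 9.58%. Surface ectoderm had Hhip higher and Ptch1 and Gli1 lower, against 22%. Intermediate mesoderm had Gli3 and Boc higher, against 4.57%, and the allantois Smo alone, against 10.3%. Over the 13 classes this makes 32 higher and 26 lower calls, all from 1 fit whose comparisons share their class sums. All 9 members passed the filter on low counts.

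Other genes of the pathway were taken as lists, each read against the share of all genes that passed in the same comparison. Of 26 tested pathway components, which carry the signal from ligand release to Gli processing, 1 passed between splanchnic-side and somatic-side mesoderm, where 3.63% of all genes did. This was Scube1, whose family releases ligand from the sending cell, at 4.97 and 7.09 against 26.5 and 42.6 CPM. Its log2 difference was -2.53 ± 0.35 (edgeR, adjusted p = 0.000441). In neural tube against caudal epiblast 3 of 26 were higher and none lower, all of the Scube family, against 6.43% of all genes. Scube2 was 10.3 and 19.5 against 0.25 and 0.11. In somite 1 of 26 was higher, Scube3 at 7.56 and 7.78 against 1.60 and 1.95, where 7.19% of all genes passed. The median log2 change of this list was between -0.04 and 0.10 in these 3 comparisons, beside -0.01 to 0.02 for all genes.

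Among 9 inhibitors and co-receptors, Gas1, which presents ligand like Boc, was 140 and 174 in somite against 46.1 and 49.7 in presomitic mesoderm (1.73 ± 0.31, edgeR, adjusted p = 0.00113). It was 68.3 and 97.3 in neural tube against 23.7 and 30.0 in caudal epiblast (1.62 ± 0.32, edgeR, adjusted p = 0.00285). Cdon, the paralogue of Boc, was higher in somite (12.2 and 9.88 against 4.63 and 4.91) and in splanchnic-side mesoderm (11 and 8.10 against 3.55 and 3.46). The glypican Gpc4 was lower in both more mature tissues, at 3.92 and 2.72 against 23.6 and 22.9 in paraxial mesoderm and 5.99 and 8.93 against 41.0 and 44.3 in neural tissue. Counts were 2 higher and 1 lower of 9 in somite, 1 and 1 in neural tube and 1 and 0 in splanchnic-side mesoderm. The shares of all genes that passed in these comparisons were 7.19%, 6.43% and 3.63%.

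Of 26 known target genes 24 were tested, and 9 were higher and 2 lower in somite than in presomitic mesoderm, with a median log2 change of 1.21 beside -0.01 for all genes, of which 7.19% passed. The list shares Foxc2 with the somite gate. Pax1, which marks the sclerotome that notochord Shh induces, had 58 UMIs in somite in each library and none in presomitic mesoderm. Against the limit that 3 counts over both presomitic sums set, it was at least 55.5-fold higher. Foxd2 (41.0 and 37.4 against 0.31 and 0) and Foxl1 (12.4 and 11.2 against 0.37 and 0.56) rose as well. Among those higher were also Olig2 and Nkx2-2, which are known from the ventral neural tube, with 8 and 11 UMIs and 6 and 12 UMIs in somite and none in presomitic mesoderm. The part of neural cells or their RNA in the somite class was not tested. In neural tube 7 of 24 were higher and none lower, with a median of 1.02, against 6.43% of all genes. Among them Olig2, at 3.78 and 17.0 with no UMI in caudal epiblast, was at least 88.1-fold higher, and Nkx6-1 was 21.5 and 33.5 against 3.06 and 0.75. In splanchnic-side mesoderm 3 of 24 were higher and none lower, against 3.63% of all genes. These were Foxf1 and Foxf2, which are gate markers of this class, and Foxd2.

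In ventral against dorsal neural tube 6 of 24 target genes were higher and none lower, where 0.196% of all genes passed. Of these, Olig2, Nkx2-9, Nkx6-2, Nkx6-1 and Foxa2 defined the ventral side and are no independent evidence.

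Of 20 genes of the primary cilium, the organelle in which Smo acts, 7 were higher and none lower in the notochord, with a median log2 difference of 0.49 beside -0.04 for all genes, of which 21.2% passed. Ift57 had the largest difference of those named, at 47.1 and 35.3 CPM (1.38, edgeR, adjusted p = 0.00016). The gate of this class held genes of motile cilia, and these differed between the libraries. Foxj1 was 42.0 in replicate 1 and 5.04 in replicate 2, and Pifo 75.9 and 0. Endothelium had none of the 20 higher and 7 lower, with a median of -0.40. Of all genes 35% passed there in either direction, the same share, and 2091 of 14363 were lower. None of the 20 passed in the 3 mesodermal and neural comparisons or in the ventral against dorsal one.

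Genes whose class pattern was most like a member's were found by Pearson correlation of log2(CPM + 5) over the 13 classes. For Shh these were 9030622O22Rik (0.987), Upk3a (0.984), Ttc6 (0.983), Spag8 (0.982) and the gate marker Foxa2 (0.981). For Ihh they were Rfx6 (0.994), Gm13420 (0.991), Cltrn (0.989), Fabp1 (0.988) and Sptssb (0.986). Ptch1 lay nearest to 4933412E12Rik (0.893), Fxyd6 (0.870), Gli1 (0.870) and Arsi (0.870), so 1 fellow member stood among its 5 nearest genes. Gli1 lay nearest to Map6d1 (0.943) and Podxl2 (0.933), with the cilium-linked gene Rab34 at 0.893. Gli3 lay near Snrnp40 (0.955) and Evc2 (0.954), the latter a ciliary component of the pathway. Hhip had the weakest neighbours, led by Megf10 at 0.861. All these points share the same 2 libraries and 13 classes.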

How the data were processed

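The deposited values are raw counts of UMIs per gene and barcode; the submitters' processing notes name Cell Ranger 6.1.1 and mm10, and no source used here gives the annotation or strand setting. The 9 genes, the classes and the gene lists were chosen with earlier results of these data known. Per cell, log-scaled marker levels were standardised over both libraries and averaged per class. The top class had to lead by 0.5, with 3 different markers detected. No doublet caller was applied in the main analysis; Scrublet marked 9.81% and 6.57% of cells and leaving these out was an alternative. Counts were summed per class and library (13 classes with at least 20 cells in each) and tested with edgeR 4.0.16 (quasi-likelihood, TMM, filterByExpr, library as a block, R 4.3.3), with Benjamini-Hochberg adjustment over all genes. Each class has 1 sum per library, so n is 2 libraries, and same-numbered sums come from the same pool of embryos. Nothing says that the libraries came from separate litters. The library block takes out the shift between the 2 libraries that all classes share. The p-values thus measure only how far class differences varied between these 2, pooled over the 13 classes. A custom eGFP feature was left out of the sums. Named genes of the lists are those with an adjusted p under 0.05, at most 6 per list and comparison by absolute fold change; 1 such gene is not reported here. The scripts were tested on simulated data. There, 45.9% of 2-fold changes were recovered for splanchnic-side against somatic-side mesoderm and 37.6% for notochord. False calls made up 9.52% and 1.82% of the calls.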

Additional observations from a re-analysis of the deposited data

Results flagged for a closer look

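Signal was also present in data that no comparison used. In the ungated cells, 4467 in replicate 1 and 3363 in replicate 2, Shh stood at 10.5 and 16.3 CPM, 21.5% and 34.8% of all Shh UMIs in the cells examined, so part of the Shh-bearing cells carries no class. Ptch1 stood at 56.9 and 55.5 there. Barcodes under 0.3% mitochondrial UMIs (11242 and 5184) held less Shh, at 4.71 and 5.83, and less Ptch1, at 14.6 and 11. The custom eGFP feature, for which the labels of these wild-type embryos name no transgene, read 4.73 and 3.83 CPM.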

How the results depend on the processing

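Of 69 calls, none was lost with RLE size factors or at 4000 UMIs and 1 to 6 were lost under each other test, filter or gate alternative, the gate margin of 0.25 and the fit without extraembryonic endoderm having been chosen after seeing the data; DESeq2 lost 5, Scrublet 6. Without the replicate block 14 were lost, and members higher in somite and in neural tube numbered 2 and 2 in place of 4 and 4. With no filter Ptch1 in somite and Gli1 in neural tube also passed. Unthinned shares were 91.9% (Shh, notochord, replicate 1), 48.3% (Shh, gut, replicate 1), 66.2% and 58.5% (Ihh, gut), and 70.1% and 69.5% (Ptch1, splanchnic-side); with low-mitochondrial barcodes the last was 43.1% in replicate 1. With 1 library there is 1 sum per class and no test. Of the 69 called values, 28 moved by more than the spread between libraries and 1 reversed without replicate 1, and 18 moved without replicate 2. Single-library values were log2 levels with a small added count, set against edgeR values of both libraries. These counts thus mix the change of method with the loss of a library. Ihh in somatic-side cells, at -3.65 by edgeR, read -2.50 and -2.60 in the single libraries. The reversed value was Gli1 in gut: without replicate 1, it read 0.00558, and without replicate 2 it read -1.49. Against the plain mean of the other classes it was 0.24 times in replicate 1 and 0.56 times in replicate 2. Reversed log2 differences, none of them called, were Shh by Cdx2 (RLE -0.0135, DESeq2 -0.17, no replicate block -0.10, low-mitochondrial barcodes -0.0901, margin 0.25 -0.13), Gli2 by Cdx2 (0.11, margin 0.25), Gli2 (-0.0393, low-mitochondrial barcodes; -0.0606, Scrublet) and Shh (1.94, Scrublet) in ventral against dorsal neural tube, and Ihh (-0.59, margin 0.25, splanchnic-side; -0.34, Scrublet, neural tube). The causes were not tested. Depth limits Hhip, Boc in notochord and both ligands outside their source classes, where sums held few UMIs.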
